A study of Homo sapiens with 38 samples.

Results

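The comparison described here is between human naive embryonic stem cells that had spent 8 days in the commercial medium mTeSR and the same cells after 8 days in the commercial medium E8. It rests on 4 of the 38 libraries of the study. These are the 2 titled as mTeSR at day 8 and the 2 titled as E8 at day 8. The members were taken by those titles, with earlier results of these data known. All 4 came from the line Shef6, an established human embryonic stem cell line of no engineered genotype in the labels, and from the experiment called Ex1. Before day 0 the cells were naive, had been adapted to growth without feeder cells on a serum coating, and grew in PXGL. In PXGL, LIF is joined by inhibitors of MEK (PD0325901), tankyrase (XAV939) and protein kinase C (Gö6983). By the study's methods the naive cells grew at reduced oxygen, and no oxygen level is given for the days in E8 or mTeSR. They were plated on Geltrex, a basement membrane extract, with ROCK inhibitor for the first day, and were then fed E8 or mTeSR in place of the N2B27 basal medium used elsewhere in the study. Medium and its supplier's formulation are therefore the only labelled difference between both groups, the version of mTeSR was not given in the sources used here, and 1 cell line in 1 experiment limits both groups as a model. RNA was measured by QuantSeq, a 3′ tag protocol which reads transcripts close to their poly(A) tails.

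E8 and mTeSR were designed to keep primed pluripotent stem cells undifferentiated, and both supply FGF2 and a ligand of the TGFβ family. Cells leaving the naive state pass through capacitation, in which naive factors are switched off and competence for the germ layers is gained. In the embryo the first step towards mesoderm and endoderm is the primitive streak, where Nodal and WNT signals switch on T-box and homeobox factors such as EOMES, TBXT and MIXL1, while secreted inhibitors (Cerberus, Lefty, Noggin, DKK1) restrain the same signals. Cells short of oxygen stabilise HIF factors, which switch on glycolysis, prolyl hydroxylases and mitophagy genes. The question that the comparison addresses is how far 2 media for the same purpose leave capacitating cells in the same transcriptional state.

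The mTeSR libraries held 3677825 and 3534869 counts and the E8 libraries 5350385 and 4240390, within the range of 3038046 to 5612354 of the whole series. The E8 replicates differed more than the mTeSR replicates: the chi-square of their counts per degree of freedom was 7.28 over 16588 genes, against 2.14 between the mTeSR libraries. Over the 19 pairs of the series it ran from 1.33 to 9.09, and 2 pairs, E8 at day 3 and N2B27 at day 3, exceeded the E8 pair. By correlation the library closest to E8 replicate 2 was an E8 library of day 6. E8 replicate 1 was also the library with the most genes detected in the series (25447), and genes annotated as pseudogenes took 1.37% of its counts against 1.16%, 1.14% and 1.05% in the other libraries. Genes that mark pluripotent cells were present in all 4 libraries. POU5F1 stood at 270 and 561 CPM (the counts of a gene scaled to a common library total) in E8 and at 409 and 414 CPM in mTeSR, SOX2 at 297 and 387 against 385 and 356 CPM, and NANOG at 867 and 878 against 998 and 1086 CPM. POU5F1 in E8 differed between replicates by more than between media. In bulk RNA a lower share of cells of a type and less RNA per cell cannot be told apart.

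A gene was called when its adjusted p (edgeR, Benjamini-Hochberg over all genes tested) was under 0.05 and its log2 fold change, here always mTeSR against E8, was beyond 1 in size. Of 16674 genes tested, 885 were called at day 8 (5.31%), of which 419 were higher in mTeSR (2.51%) and 466 lower (2.79%). Of the 885, 849 had no overlap between the libraries of both media, while 26.4% of all genes tested had no overlap with mTeSR higher and 25.5% with mTeSR lower. The count depended on the E8 libraries: it was 428 without E8 replicate 1 (250 higher and 178 lower) and 1200 without E8 replicate 2 (493 higher and 707 lower). Without mTeSR replicate 1 or 2 it was 641 or 469. Calls shared with the full fit numbered 355 without E8 replicate 1 and 718 without E8 replicate 2. Calls that were made in the full fit and again after each of the 4 libraries was left out in turn numbered 247, 144 higher and 103 lower.

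**Figure D1:**
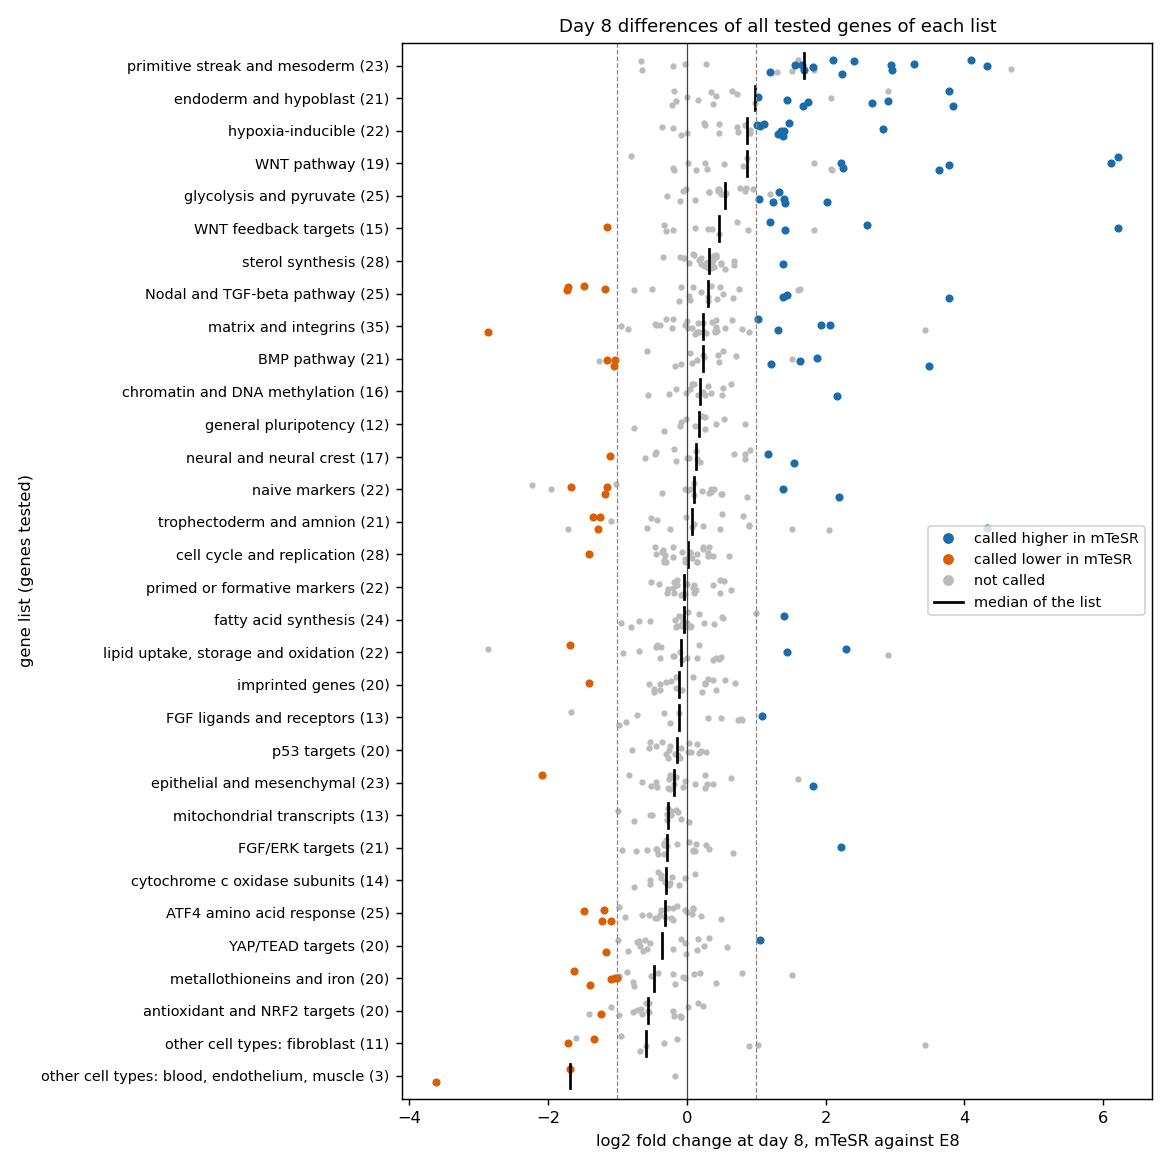
Log2 fold change at day 8 (mTeSR against E8, x axis) of every tested gene in 32 gene lists (y axis, number of genes tested in brackets, ordered by list median). Blue points were called higher in mTeSR, orange points lower, grey points were not called, black bars are list medians and dashed lines stand at -1 and 1. The lists for primitive streak and mesoderm, endoderm, the WNT pathway, low oxygen and glycolysis hold calls in the higher direction and none in the lower.

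Genes of the primitive streak and early mesoderm were the group with the most calls. Of 23 tested, 13 were called higher in mTeSR (56.5%) and none lower, against 2.51% and 2.79% of all genes, and the median log2 fold change of the list was 1.70 (1.56 with genes of 3 counts or fewer in 1 medium held at their bound). The summed level of the list was 152 and 164 CPM in E8 and 410 and 390 CPM in mTeSR. ERBB4, a receptor tyrosine kinase for neuregulins (chromosome 2, 211375717 to 212538841), stood at 3.56 and 3.30 CPM in E8 and at 52.4 and 65.8 CPM in mTeSR, a log2 fold change of 4.09 ± 0.32 (SE; adjusted p 1.53e-10). MIXL1, a homeobox factor of the streak (chromosome 1, 226223618 to 226227060), stood at 12.7 and 12.5 CPM in E8 and at 109 and 85.9 CPM in mTeSR (2.94 ± 0.21, adjusted p 3.62e-11). For both genes each mTeSR library lay far above each E8 library. LHX1, a LIM homeobox factor of the node and axial mesendoderm, went from 10.7 and 10.4 CPM in E8 to 42.9 and 56.5 CPM in mTeSR, 4.71-fold higher. EOMES, the T-box factor that starts endoderm and cardiac mesoderm, was at 8.06 and 8.95 CPM in E8 and at 41.3 and 31.9 CPM in mTeSR, 4.31-fold higher. TBXT, or brachyury, differed less, with 14.4 and 16.5 CPM in E8 and 42.1 and 28.5 CPM in mTeSR (2.29-fold, adjusted p 5.72e-04).

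Several members at low levels were also called. APLNR, the apelin receptor of nascent mesoderm, stood at 0.562 and 0.235 CPM in E8 and at 5.70 and 2.80 CPM in mTeSR, and its ligand APLN at 3.75 and 4.24 against 13.6 and 11.8 CPM. CDX2, a caudal-type factor of posterior mesoderm and of trophectoderm, had 1 count in both E8 libraries together and 19 in mTeSR, a ratio of 25.1 (95% exact counting interval 3.99 to 1043). CDX1 had 3 counts against 19, a ratio of 8.37 (2.46 to 44.1). GSC, the organiser homeobox factor, was 3.54-fold higher, EVX1 5.34-fold, FOXC1 3.24-fold and HOXB2 2.96-fold. The members that did not pass included SNAI1, a driver of epithelial to mesenchymal transition, at 12.7 and 12.7 CPM against 11.1 and 14.0 CPM, KDR at 24.9 and 24.5 against 23.6 and 19.6 CPM, and PDGFRA at 5.25 and 5.18 against 6.79 and 5.88 CPM. ERBB4, MIXL1, LHX1, EOMES, APLNR and CDX2 were called after leaving out any 1 library. Without E8 replicate 1, 7 of the list were called, and GSC, EVX1, APLN, CDX1, FOXC1 and HOXB2 were lost with log2 fold changes of 1.54 to 3.18. TBXT was lost without mTeSR replicate 1 (0.88), and so were GSC, EVX1 and APLN. Without mTeSR replicate 2 the calls of GSC, APLN and HOXB2 were lost, and without E8 replicate 2 those of GSC, EVX1 and HOXB2.

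**Figure D2:**
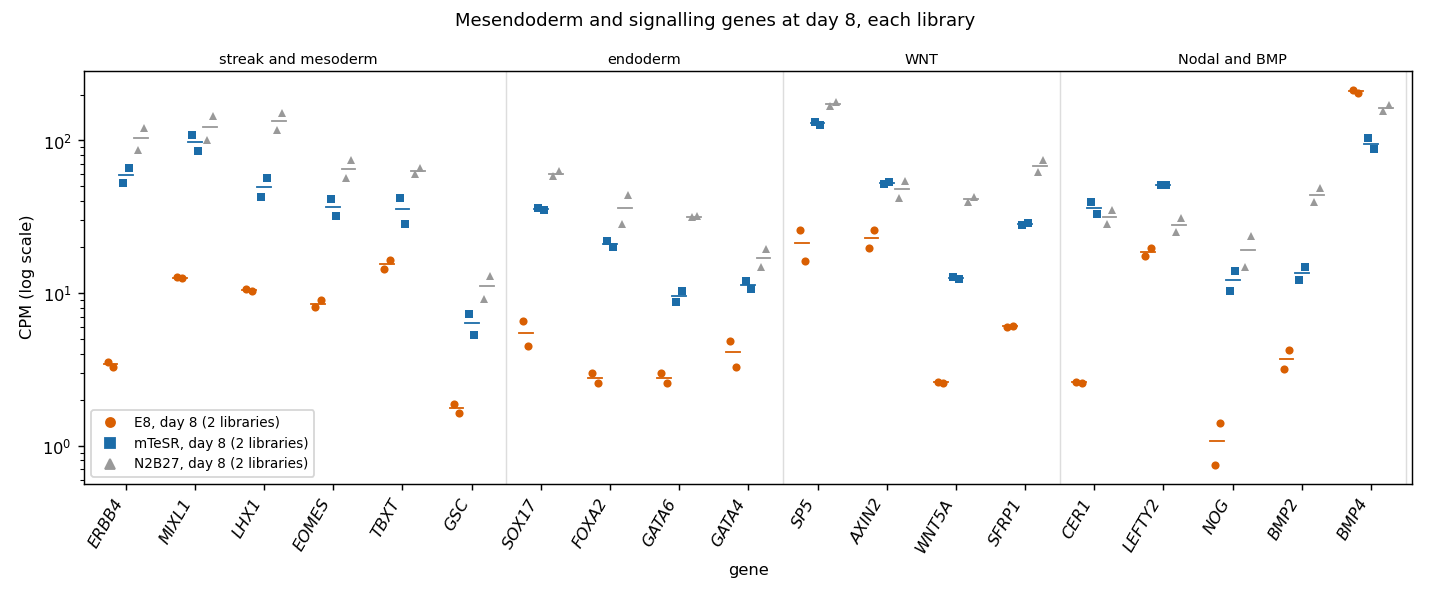
Level at day 8 in CPM (y axis, log scale) of genes of the streak, the endoderm and the WNT, Nodal and BMP pathways (x axis) in each library. Orange circles are E8, blue squares mTeSR, grey triangles N2B27 (2 libraries each, the N2B27 pair ordered by level) and short bars the means. In each gene but BMP4 both mTeSR libraries lie above both E8 libraries.

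Endoderm and hypoblast genes followed, with 8 of 21 tested called higher (38.1%) and none lower, against 2.51% and 2.79% of all genes, and a list median of 0.98. SOX17, the HMG-box factor of definitive endoderm and of primordial germ cells, stood at 6.56 and 4.47 CPM in E8 and at 35.8 and 35.3 CPM in mTeSR, 6.33-fold higher (adjusted p 2.89e-08). FOXA2, a forkhead factor of endoderm and node, was at 2.997 and 2.59 CPM in E8 and at 21.99 and 20.1 CPM in mTeSR, 7.44-fold higher (adjusted p 1.81e-06). GATA6, shared by hypoblast and endoderm, was at 2.997 and 2.59 against 8.69 and 10.4 CPM, and GATA4 at 4.87 and 3.30 against 11.9 and 10.6 CPM. HHEX, a marker of anterior endoderm, was 3.19-fold higher, the laminin chain gene LAMB1 2.05-fold and the cystatin gene CST1 14.3-fold, with 6 counts of CST1 in 1 E8 library and 0 in the other. APOA1 had 1 count in E8 and 7 in mTeSR and did not pass (adjusted p 0.214). Without E8 replicate 1, 9 of the list were called, with HHEX lost (1.42) and CXCR4 and PRDM1 gained. GATA4 was lost without mTeSR replicate 1 or E8 replicate 2 (1.34 and 1.18), LAMB1 without mTeSR replicate 2 or E8 replicate 2 (0.94 and 0.92), and HHEX also without either mTeSR replicate.

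Of 19 tested WNT pathway genes, 6 were called higher in mTeSR (31.6%, against 2.51% of all genes) and none lower, with a list median of 0.87. The lists share members, so their counts are not separate. CER1, described with the Nodal genes, is counted here and among the endoderm genes, and DKK1 also among the WNT feedback genes. Several are secreted inhibitors or ligands. SFRP1, a secreted WNT antagonist, was at 5.99 and 6.12 CPM in E8 and at 28.0 and 28.8 CPM in mTeSR, 4.67-fold higher. WNT5A, a ligand of the non-canonical branch, was at 2.62 and 2.59 CPM in E8 and at 12.8 and 12.3 CPM in mTeSR. DKK1, an antagonist of the WNT co-receptor, had 0 counts in E8 against 15 in the mTeSR libraries. The 95% exact counting interval of its ratio began at 4.74. RSPO2, a potentiator of WNT signals, had 0 counts in E8 against 14 in the mTeSR libraries, and its interval began at 4.38. The receptor gene FZD2 had 2 counts against 21, a ratio of 13.9 (95% exact counting interval 3.39 to 122). WNT3, the ligand of the streak, stood at 10.1 and 8.01 CPM in E8 and at 18.7 and 13.4 CPM in mTeSR and did not reach the fold threshold (log2 fold change 0.82). DKK1 and RSPO2 lost their calls without E8 replicate 1 or mTeSR replicate 1, where their adjusted p lay between 0.0744 and 0.147. DESeq2 gave DKK1, RSPO2 and FZD2 no adjusted p.

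Among 15 genes that WNT/β-catenin signalling switches on as feedback, 4 were called higher in mTeSR (26.7%) and 1 lower (6.67%), against 2.51% and 2.79% of all genes. SP5, a zinc finger factor directly under β-catenin control (chromosome 2, 170715337 to 170718078), stood at 26.0 and 16.2 CPM in E8 and at 132 and 126 CPM in mTeSR, 6.03-fold higher (adjusted p 2.13e-09). AXIN2, the negative regulator used as a general reporter of the pathway, was at 19.9 and 25.9 CPM in E8 and at 51.6 and 53.2 CPM in mTeSR, 2.30-fold higher (adjusted p 1.18e-04). RNF43, which removes frizzled receptors, was 2.68-fold higher, with 2.25 and 2.35 CPM against 6.52 and 5.88 CPM, but was called only with mTeSR replicates 1 and 2 and E8 replicate 1 all present (adjusted p 0.0522 to 0.103 without 1 of them). LEF1 stayed under 1 CPM in all 4 libraries and TCF7 stood at 12.7 and 19.5 against 19.8 and 19.6 CPM. BMP4, which is also on this list, was lower and is given with the BMP genes.

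Promoters are shown for the 2 called genes of this and the streak list in which a TCF/LEF core, CTTTGAT, was found on either strand, SP5 and MIXL1. The sequences are those of the RefSeq table for GRCh38.p14, from 250 bases before to 50 bases after the annotated start, 5′ to 3′ on the strand of the gene, with the core in capitals. SP5 lies at chr2:170715087-170715386 on the plus strand and MIXL1 at chr1:226223414-226223713 on the plus strand.
SP5: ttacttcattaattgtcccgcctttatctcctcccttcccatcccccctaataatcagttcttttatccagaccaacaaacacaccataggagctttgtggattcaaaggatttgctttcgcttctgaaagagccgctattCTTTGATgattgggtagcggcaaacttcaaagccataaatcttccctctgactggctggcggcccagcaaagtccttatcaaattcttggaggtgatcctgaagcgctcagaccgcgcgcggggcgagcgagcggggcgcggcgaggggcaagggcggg
MIXL1: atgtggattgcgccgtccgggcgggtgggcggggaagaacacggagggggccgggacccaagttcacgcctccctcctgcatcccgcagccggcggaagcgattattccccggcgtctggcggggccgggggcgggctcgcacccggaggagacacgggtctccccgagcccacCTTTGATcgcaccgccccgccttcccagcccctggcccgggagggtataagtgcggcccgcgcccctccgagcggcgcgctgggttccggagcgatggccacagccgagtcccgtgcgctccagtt
Each held 1 copy, and the core was present in 2.64% of the 27305 promoters of the table and in 1.45% of the 10818 of genes tested. The other called genes of both lists that have a promoter in the table, RNF43, BMP4, DKK1, TBXT, EOMES, GSC, EVX1, FOXC1, APLN, ERBB4 and CDX2, held none in this window.

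Of 25 tested Nodal and TGFβ genes, 3 were called higher in mTeSR (12%) and 4 lower (16%), against 2.51% and 2.79% of all genes, and without E8 replicate 1 these were 3 and 3. CER1, the Nodal, BMP and WNT antagonist Cerberus (chromosome 9, 14719724 to 14722733), stood at 2.62 and 2.59 CPM in E8 and at 39.6 and 33.0 CPM in mTeSR, 13.8-fold higher (adjusted p 9.08e-08). LEFTY2, a feedback inhibitor of Nodal (chromosome 1, 225936598 to 225941383), was at 17.6 and 19.8 CPM in E8 and at 51.0 and 50.9 CPM in mTeSR, 2.73-fold higher. Its neighbours in the pathway did not pass: LEFTY1 stood at 198 and 156 CPM in E8 and at 169 and 167 CPM in mTeSR, NODAL at 131 and 129 against 175 and 156 CPM, and GDF3, a Nodal-related ligand, at 188 and 282 against 378 and 366 CPM (log2 fold change 0.66). Genes lower in mTeSR included an activin subunit and a TGFβ receptor. INHBA, the subunit of activin A, was at 11.1 and 12.7 CPM in E8 and at 3.80 and 3.36 CPM in mTeSR, 3.29-fold lower. TGFBR2, the type II TGFβ receptor, was at 6.56 and 8.01 against 1.63 and 2.80 CPM, a call lost without any 1 of the 4 libraries (adjusted p 0.0657 to 0.191). INHBE, also lower, is described with the ATF4 genes.

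In the BMP pathway 4 of 21 tested genes were called higher in mTeSR (19.05%) and 3 lower (14.3%), against 2.51% and 2.79% of all genes, and without E8 replicate 1 these were 3 and 2. NOG, the BMP antagonist Noggin, was at 0.749 and 1.41 CPM in E8 and at 10.3 and 14.0 CPM in mTeSR, 11.3-fold higher (adjusted p 1.21e-06). BMP2 was at 3.18 and 4.24 CPM in E8 and at 12.2 and 14.8 CPM in mTeSR, 3.67-fold higher. BMP4 (chromosome 14, 53949736 to 53958761) was lower, at 215 and 206 CPM in E8 and at 103 and 87.3 CPM in mTeSR (log2 fold change -1.14 ± 0.13, adjusted p 2.03e-07). The ligands BMP2 and BMP4 differed in opposite directions. TBX3, a T-box factor that responds to BMP and marks naive cells and early mesoderm, was at 23.6 and 31.8 CPM in E8 and at 95.6 and 75.0 CPM in mTeSR. GREM1, an antagonist of BMP ligands, was lower (35.4 and 29.9 against 15.7 and 16.0 CPM). The immediate BMP targets ID1 and ID3 stood at 137 and 123 against 122 and 110 CPM and at 91.6 and 102 against 111 and 102 CPM, and did not pass. ID4 was called lower at -1.03. GREM1 lost its call without E8 replicate 1 (-0.90), and ID4 without either mTeSR replicate or E8 replicate 2.

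FGF signalling is supplied by both media. Of 21 FGF/ERK targets tested, 1 was called higher (4.76%) and none lower, with a list median of -0.28, and of 13 FGF ligands and receptors 1 was higher (7.69%) and none lower, against 2.51% of all genes called higher. Without the fold threshold 5 of the 21 and 7 of the 13 had an adjusted p under 0.05, against 14.1% of all genes. DUSP6, the phosphatase that ERK switches on to limit itself, was at 63.7 and 71.6 CPM in E8 and at 54.6 and 56.5 CPM in mTeSR. SPRY2 was at 46.5 and 63.3 against 62.4 and 70.5 CPM and ETV4 at 75.5 and 80.8 against 69.0 and 72.5 CPM. The 2 calls were EPHA4, an ephrin receptor, at 2.44 and 3.77 against 14.9 and 13.7 CPM, and FGFR4 at 10.3 and 12.0 against 21.99 and 25.2 CPM, the latter lost without E8 replicate 1 or mTeSR replicate 2 (0.98 in both). FGF2 itself was at 465 and 421 CPM in E8 and at 268 and 272 CPM in mTeSR, short of the fold threshold at a log2 fold change of -0.71 (adjusted p 1.66e-06).

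None of 12 general pluripotency genes and none of 22 primed or formative genes was called, with list medians of 0.17 and -0.04. In edgeR's quasi-likelihood test 5 of the 12 and 4 of the 22 had an adjusted p under 0.05 without the fold threshold, against 14.1% of all genes, and 7 and 5 had an unadjusted p under 0.05, against 27.4% of all genes. DESeq2 also called none of either list, and without E8 replicate 2 edgeR called 1 general gene lower. Of 22 naive markers, 2 were called higher in mTeSR (9.09%) and 3 lower (13.6%), against 2.51% and 2.79% of all genes. NLRP7, a maternal-effect gene of the oocyte, was at 297 and 323 CPM in E8 and at 756 and 873 CPM in mTeSR, and HORMAD1, a meiotic gene, at 0.562 and 0.471 against 2.71 and 2.24 CPM. KLF4, a Krüppel-like factor of naive cells, was at 64.8 and 57.9 CPM in E8 and at 18.2 and 20.4 CPM in mTeSR, 3.18-fold lower, and KLF17 at 43.8 and 32.5 against 15.5 and 18.5 CPM, 2.26-fold lower. ALPG, listed as ALPPL2, an alkaline phosphatase used as a naive surface marker, was at 42.7 and 40.3 against 16.6 and 21.0 CPM. Naive cells of the series had a median of 110 CPM of KLF4 and 76.1 CPM of KLF17. KLF17 lost its call without E8 replicate 1 (-0.92) or either mTeSR replicate, HORMAD1 without E8 replicate 1 or mTeSR replicate 1, and ALPG without mTeSR replicate 1 (-0.996).

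Of 22 tested genes that respond to low oxygen, 9 were called higher in mTeSR (40.9%) and none lower, against 2.51% and 2.79% of all genes. Of the 22, 19 had a log2 fold change above 0, and the list median was 0.87. The summed level of the list was 3606 and 3552 CPM in E8 and 6035 and 6147 CPM in mTeSR. PFKFB4, an enzyme that sets the fructose 2,6-bisphosphate level and with it glycolytic flux (chromosome 3, 48517684 to 48562015), stood at 7.12 and 4.47 CPM in E8 and at 38.5 and 45.9 CPM in mTeSR, 7.13-fold higher (adjusted p 4.56e-08). P4HA1, the collagen prolyl hydroxylase subunit (chromosome 10, 73007217 to 73096974), was at 176 and 180 CPM in E8 and at 438 and 447 CPM in mTeSR, 2.48-fold higher (adjusted p 2.70e-11), and its paralogue P4HA2 at 21.5 and 19.8 against 58.6 and 57.1 CPM. BNIP3, a receptor for the removal of mitochondria, was at 458 and 429 CPM in E8 and at 937 and 901 CPM in mTeSR. NDRG1 was at 31.5 and 40.3 against 76.6 and 107 CPM, MXI1, a MYC antagonist, at 18.5 and 25.4 against 52.4 and 63.0 CPM, and PDK1, which closes the entry of pyruvate into the mitochondrion, at 33.5 and 30.6 against 79.5 and 59.3 CPM. In each of these 7 called genes both mTeSR libraries lay above both E8 libraries, as they did in 26.4% of all genes tested. Of all 885 called genes 849 had no overlap, so this adds nothing to the call.

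Other HIF targets did not pass. VEGFA, the angiogenic factor, was at 84.3 and 91.4 CPM in E8 and at 76.8 and 89.5 CPM in mTeSR, EGLN3 at 31.7 and 35.3 against 35.0 and 31.9 CPM, and the glucose transporter gene SLC2A1 at 343 and 365 against 413 and 430 CPM. INSIG2 (2.62-fold) and STC1 (2.02-fold) completed the 9. At day 6, in libraries that do not enter the day 8 comparison, 10 of the 22 were called higher and none lower, against 0.63% and 0.474% of all genes tested at that day. PDK1 lost its day 8 call without mTeSR replicate 1 (0.87), BNIP3 without E8 replicate 2 (0.98), INSIG2 without mTeSR replicate 2 (1.08) and STC1 without mTeSR replicate 2 or E8 replicate 1 (0.80 and 0.90). Without E8 replicate 1, 10 of the list were called.

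**Figure D3:**
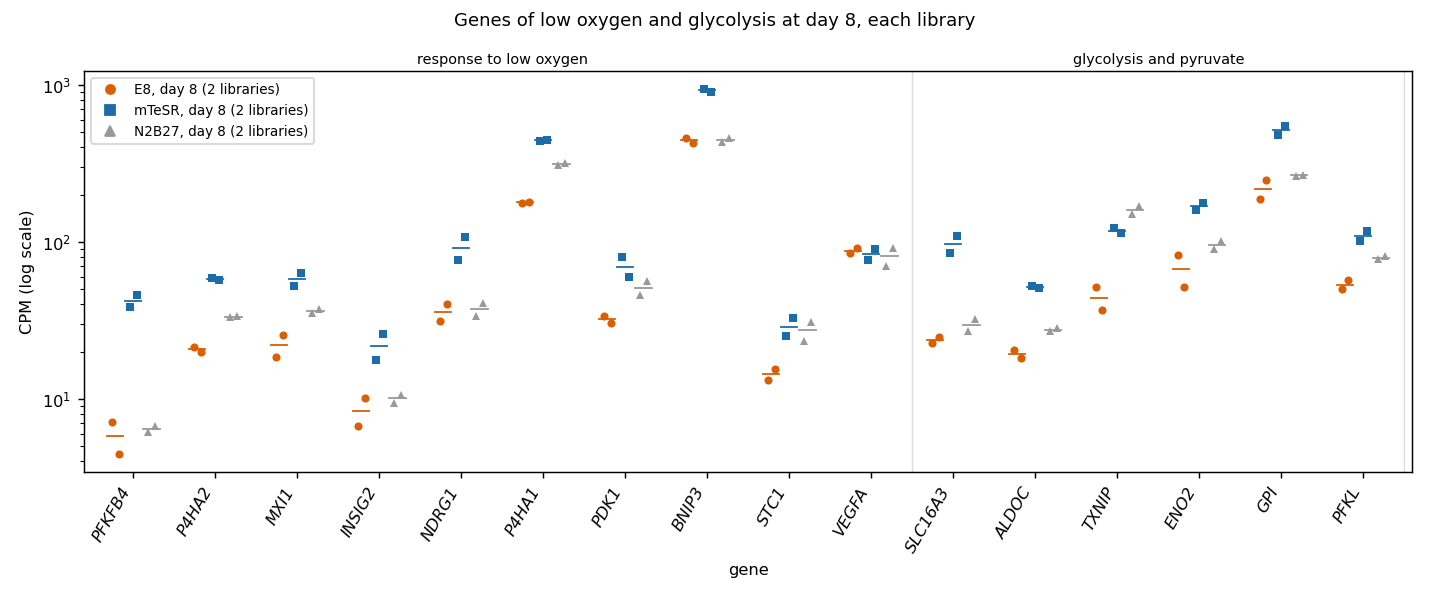
Level at day 8 in CPM (y axis, log scale) of hypoxia-inducible and glycolysis genes (x axis) in each library. Orange circles are E8, blue squares mTeSR, grey triangles N2B27 (2 libraries each, the N2B27 pair ordered by level) and short bars the means. In all genes but VEGFA both mTeSR libraries lie above both E8 libraries, and for PFKFB4, BNIP3, NDRG1 and SLC16A3 the N2B27 libraries lie near E8.

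Of 25 tested glycolysis genes, 6 were called higher in mTeSR (24%) and none lower, against 2.51% and 2.79% of all genes, and 21 were above 0. Without E8 replicate 1, 7 were called higher and none lower. SLC16A3, the lactate exporter MCT4 (chromosome 17, 82217934 to 82261129), was at 22.9 and 24.7 CPM in E8 and at 84.7 and 108 CPM in mTeSR, 4.06-fold higher (adjusted p 1.82e-07). ALDOC was at 20.4 and 18.1 CPM in E8 and at 52.7 and 50.7 CPM in mTeSR, ENO2 at 81.9 and 51.8 against 160 and 177 CPM, and GPI at 188 and 247 against 476 and 550 CPM. TXNIP, which rises with intracellular glucose, was at 51.3 and 37.0 against 122 and 113 CPM. PFKL was called at 1.04 and lost without E8 replicate 1 or mTeSR replicate 2 (0.96 and 0.94). More abundant glycolytic transcripts had an adjusted p under 0.05 without reaching the fold threshold: PGK1 stood at 526 and 564 CPM in E8 and at 1077 and 1034 CPM in mTeSR (log2 fold change 0.95, adjusted p 1.9e-08), LDHA at 907 and 712 against 1467 and 1424 CPM (0.84, above 1 without E8 replicate 1), and SLC2A3 at 979 and 1073 against 1661 and 1734 CPM (0.73). A further 5 genes known to respond to low oxygen or to store glycogen, chosen after their values were seen, were higher in mTeSR and called after leaving out any 1 library: FAM162A (159 and 185 against 517 and 538 CPM), PLOD2 (44.02 and 41.2 against 112 and 108 CPM), GYS1 (27.9 and 28.7 against 73.6 and 89.8 CPM), GBE1 (39.2 and 34.4 against 92.6 and 90.4 CPM) and FUT11 (15.5 and 17.4 against 41.8 and 44.2 CPM).

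The core of the hypoxia response element, ACGTG, was searched on both strands in the same RefSeq promoter windows, and 2 of the called genes that hold it are shown, ALDOC with the most matches and P4HA1 with the lowest adjusted p. ALDOC lies at chr17:28576846-28577145 and P4HA1 at chr10:73096817-73097116, both on the minus strand.
ALDOC: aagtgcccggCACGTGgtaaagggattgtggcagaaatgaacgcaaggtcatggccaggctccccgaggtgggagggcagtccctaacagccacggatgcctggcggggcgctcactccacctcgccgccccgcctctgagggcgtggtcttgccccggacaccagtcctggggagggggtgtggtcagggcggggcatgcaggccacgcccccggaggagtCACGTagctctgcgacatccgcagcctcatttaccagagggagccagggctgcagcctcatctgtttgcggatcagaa
P4HA1: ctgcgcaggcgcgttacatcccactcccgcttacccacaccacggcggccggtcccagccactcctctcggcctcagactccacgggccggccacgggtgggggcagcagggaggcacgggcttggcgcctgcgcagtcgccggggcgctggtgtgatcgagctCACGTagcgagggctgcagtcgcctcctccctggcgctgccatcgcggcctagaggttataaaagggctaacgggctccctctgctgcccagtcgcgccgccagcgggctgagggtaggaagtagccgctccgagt
ALDOC had 3 matches, of which 2 overlap in the palindrome CACGTG, and P4HA1 had 1. The core was found in 21.6% of all 27305 promoters and in 26.2% of the 10818 of genes tested. Of the hypoxia list it was found in 7 of 16 tested genes with a promoter in the table (43.8%) and in 3 of 7 called ones (42.9%), and of the glycolysis list in 10 of 23 (43.5%) and 3 of 6 (50%). The other called holders were BNIP3 with 2 matches and INSIG2, GPI and ENO2 with 1 each, and PFKFB4, P4HA2, MXI1, PDK1, SLC16A3, TXNIP and PFKL had no match in this window.

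Relative to N2B27 at day 8, a medium without FGF2 or TGFβ ligand whose 2 libraries are given here as levels only, these gene groups took different places. Of the 13 called streak and mesoderm genes, both N2B27 libraries lay above both mTeSR libraries for 10 and below both for 1, and of the 8 called endoderm genes above for 6 and below for 0. ERBB4 was at 86.9 and 120 CPM in N2B27, LHX1 at 118 and 151 CPM and SOX17 at 58.4 and 63.0 CPM. For the 9 called genes of low oxygen N2B27 lay below both mTeSR libraries for 8 and above for 0. N2B27 lay above both E8 libraries for 5 of the 9. PFKFB4 stood at 6.17 and 6.68 CPM and BNIP3 at 430 and 460 CPM in N2B27. For the 6 called glycolysis genes N2B27 lay below both mTeSR libraries for 5 and above for 1, and above both E8 libraries for 6. Among these, SLC16A3 was at 26.9 and 32.3 CPM in N2B27. Among all 419 genes called higher, N2B27 lay above both mTeSR libraries for 102 and below both for 204.

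Genes higher in E8 included a set of actin and contractile genes. The set of 20 was put together after the values of its leading members had been seen, so that its counts describe and do not test. Of the 20, 9 were called lower in mTeSR and none higher, against 2.79% and 2.51% of all genes. ACTA1, the skeletal muscle α-actin (chromosome 1, 229430365 to 229434104), was at 318 and 273 CPM in E8 and at 58.1 and 44.8 CPM in mTeSR, 5.73-fold lower (adjusted p 2.70e-11). ACTC1, the cardiac α-actin, was at 141 and 134 CPM in E8 and at 47.8 and 33.6 CPM in mTeSR, 3.38-fold lower. CALD1, or caldesmon, was at 1292 and 1435 against 523 and 466 CPM, TPM1, a tropomyosin, at 723 and 729 against 309 and 279 CPM, and TMSB4X, which binds actin monomers, at 414 and 436 against 156 and 137 CPM. TAGLN was at 189 and 267 against 105 and 76.1 CPM and MYL9 at 25.1 and 39.1 against 10.6 and 7.84 CPM. The cytoplasmic actin ACTB did not pass, at 868 and 1178 CPM in E8 and 938 and 959 CPM in mTeSR. ACTA1, ACTC1, ACTG2, MYL9, CALD1, TPM1, TMSB4X and TAGLN were called after leaving out any 1 library, and CNN1 was lost without E8 replicate 2 (-0.52) or mTeSR replicate 2 (-0.89). Naive cells had a median of 0.290 CPM of ACTA1 and N2B27 cells at day 8 had 75.6 and 82.9 CPM.

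EDN1 and ANXA1 were also lower. EDN1, the vasoactive peptide endothelin-1 (chromosome 6, 12290361 to 12297194), was at 29.6 and 21.4 CPM in E8 and at 4.07 and 3.36 CPM in mTeSR, 6.84-fold lower (adjusted p 3.18e-07). ANXA1, a phospholipid-binding annexin, was at 132 and 151 against 39.6 and 26.6 CPM, 4.26-fold lower. Of 20 YAP/TEAD targets, 1 was called higher (5%) and 1 lower (5%), against 2.51% and 2.79% of all genes, with 14 below 0 and a list median of -0.36. CTGF, the target called lower, was at 314 and 221 CPM in E8 and at 108 and 131 CPM in mTeSR and was lost without E8 replicate 1 (-0.88). CYR61, its family member, was at 295 and 308 against 164 and 170 CPM (-0.85), short of the fold threshold, and AMOTL1 was higher at 1.05, lost without mTeSR replicate 2 or E8 replicate 2.

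**Figure D4:**
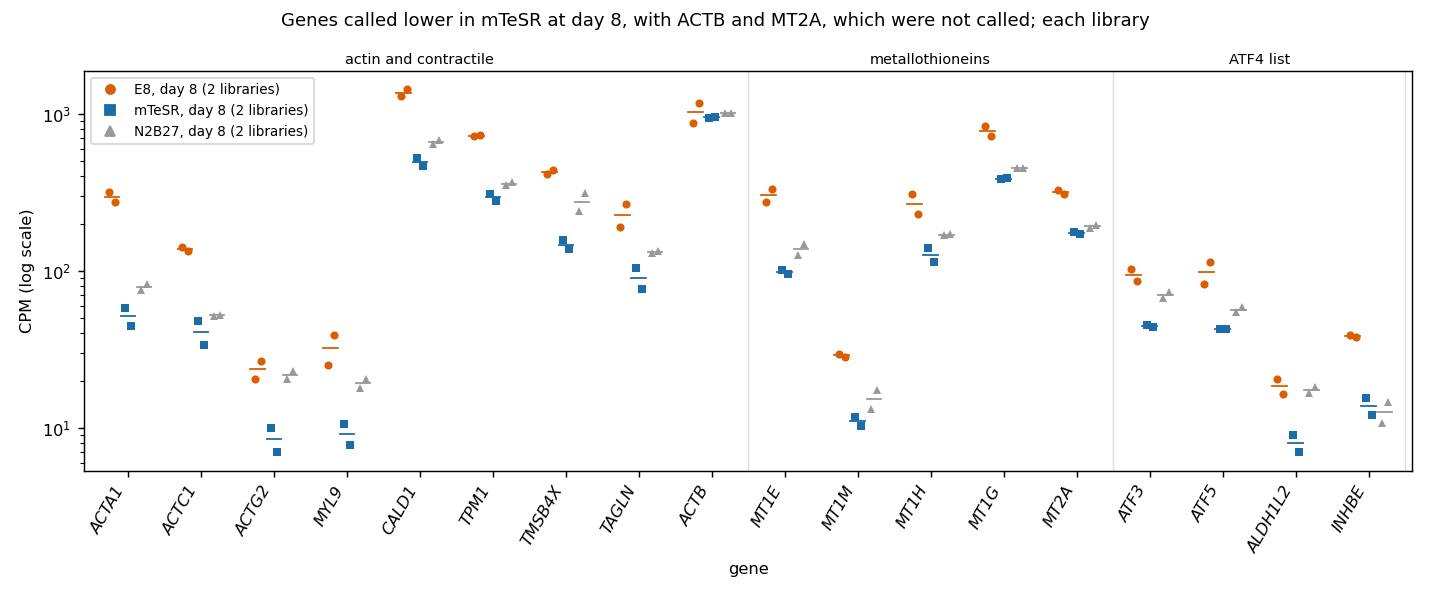
Level at day 8 in CPM (y axis, log scale) of actin and contractile genes, metallothioneins and genes of the ATF4 list (x axis) in each library. Orange circles are E8, blue squares mTeSR, grey triangles N2B27 (2 libraries each, the N2B27 pair ordered by level) and short bars the means. In each gene but ACTB both mTeSR libraries lie below both E8 libraries.

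Metallothioneins, the small proteins that bind zinc and copper and are switched on by metals, held 4 genes called lower in mTeSR. Of 20 genes of metal and iron handling, 5 were called lower (25%, against 2.79% of all genes) and none higher. MT1E (chromosome 16, 56625475 to 56627112) was at 274 and 333 CPM in E8 and at 102 and 95.4 CPM in mTeSR, 3.08-fold lower (adjusted p 1.80e-10). MT1G was at 832 and 719 against 385 and 388 CPM, MT1H at 308 and 229 against 139 and 113 CPM, and MT1M at 29.6 and 28.5 against 11.7 and 10.4 CPM. MT2A was at 325 and 308 against 177 and 170 CPM (-0.87, adjusted p 5.15e-07), short of the fold threshold, as were MT1A (-0.98), MT1F (-0.75) and MT1X, at 194 and 119 against 115 and 106 CPM (-0.51). These genes lie side by side on chromosome 16 and are near-identical, so that reads may be divided between them with error. At day 4 the log2 fold change was -1.01 for MT1E (adjusted p 7.58e-06) and -0.84 for MT2A (adjusted p 7.58e-06). SLC39A14, a zinc and iron importer, was called at -1.03. SLC39A14, MT1G and MT1H were lost without E8 replicate 1 (-0.94, -0.88 and -0.85), and MT1H also without mTeSR replicate 2. Of 20 antioxidant and NRF2 genes only NQO1 was called, at 120 and 112 CPM in E8 and at 55.4 and 42.8 CPM in mTeSR, while 17 of the 20 were below 0 (list median -0.55).

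The promoter of MT1H is shown because it was the 1 called metallothionein with a promoter in the table. Capitals mark the metal response element, spelled TGCGCNC or TGCACNC and searched on both strands (chr16:56669564-56669863, plus strand).
MT1H: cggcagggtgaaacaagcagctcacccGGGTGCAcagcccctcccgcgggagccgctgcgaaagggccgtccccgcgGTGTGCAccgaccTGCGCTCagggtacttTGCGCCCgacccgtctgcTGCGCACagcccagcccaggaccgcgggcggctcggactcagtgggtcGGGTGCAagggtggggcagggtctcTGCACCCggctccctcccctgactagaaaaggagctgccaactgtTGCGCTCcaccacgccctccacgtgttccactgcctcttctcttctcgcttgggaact
It held 8 matches. The element was found in 29.3% of all promoters and in 39.3% of those of genes tested, and the promoters of MT2A and MT1X held 8 and 4.

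Genes switched on by ATF4 in the amino acid and integrated stress response included 4 of 25 tested that were called lower in mTeSR at day 8 (16%, against 2.79% of all genes) and none called higher. At day 8, 19 of the 25 were below 0 with a list median of -0.32, and at day 6 the list median was 0.14. INHBE, an inhibin subunit switched on by this response (chromosome 12, 57452323 to 57459280), went from 16.2 and 16.4 CPM at day 6 to 39.0 and 37.9 CPM at day 8 in E8 (adjusted p 9.70e-04), and from 22.6 and 23.1 CPM to 15.5 and 12.0 CPM in mTeSR (adjusted p 0.0901). ATF5 (chromosome 19, 49928702 to 49933935) went from 55.3 and 56.2 CPM to 82.8 and 113 CPM in E8 and from 69.0 and 75.4 CPM to 42.9 and 42.5 CPM in mTeSR. ALDH1L2, an enzyme of mitochondrial folate metabolism, was at 20.6 and 16.5 CPM in E8 and at 8.96 and 6.996 CPM in mTeSR at day 8. ATF3 was at 103 and 86.2 against 45.3 and 43.9 CPM. ASNS, asparagine synthetase, was at 104 and 118 against 70.0 and 49.8 CPM (-0.89) and was not called. INHBE and ALDH1L2 were called after leaving out any 1 library, whereas ATF3 was lost without E8 replicate 1 (-0.94) and ATF5 without E8 replicate 2 (-0.98).

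Markers of other cell types were called in both directions, against 2.51% of all genes called higher and 2.79% lower. Of 21 trophectoderm and amnion genes 1 was called higher in mTeSR, CDX2, and 3 lower (14.3%): GATA3 at 10.3 and 14.8 against 4.89 and 5.32 CPM, NR2F2 at 8.24 and 7.53 against 3.53 and 3.08 CPM, and IGFBP3 at 12.6 and 9.89 against 4.07 and 4.76 CPM. All 3 were lost without either mTeSR replicate, and NR2F2 and IGFBP3 also without E8 replicate 1. The summed level of the list was 1223 and 1207 CPM in E8 and 1183 and 1209 CPM in mTeSR. Of 17 neural and neural crest genes IRX1 and CRABP2 were higher and EDNRB, the endothelin receptor of neural crest, lower, at 73.6 and 65.0 against 30.9 and 33.3 CPM, and 8 further genes of that list, SOX1 and PAX3 among them, were too low to test. IRX1 was lost without mTeSR replicate 1 (1.29). Of 11 fibroblast markers TAGLN and PDGFRB were lower (18.2%), with a summed level of 404 and 504 CPM in E8 and 343 and 330 CPM in mTeSR, and LUM, DCN and FAP were too low to test. Of 12 markers of blood, endothelium and muscle 9 were too low to test, PTPRC, CD34 and PECAM1 among them, and the summed level of the rest was 7.12 and 7.30 CPM in E8 and 2.44 and 1.40 CPM in mTeSR, with TNNT2 called lower and MYL7 at 19 counts in E8 against 1 in mTeSR. PDGFRB, TNNT2 and MYL7 each lost the call without E8 replicate 1 or mTeSR replicate 2, TNNT2 and MYL7 also without mTeSR replicate 1 and MYL7 without E8 replicate 2. Their part in the differences above was not tested.

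In the lists that follow, shares of members called stand against 2.51% of all genes called higher and 2.79% called lower. Sterol synthesis, which cells switch on when they lack outside cholesterol, had 1 call of 28 (3.57%), INSIG2, and 24 of 28 genes above 0 (median 0.33), with HMGCS1 at 332 and 333 CPM in E8 and 549 and 518 CPM in mTeSR (0.68). Of the lipid storage list PLIN2, which coats lipid droplets, was higher at 47.4 and 47.8 against 137 and 123 CPM, ANGPTL4, a lipase inhibitor, at 2.25 and 2.12 against 8.96 and 12.9 CPM, and CD36, a fatty acid receptor, lower at 8.24 and 6.83 against 2.44 and 2.24 CPM, a call lost without E8 replicate 1 or mTeSR replicate 2. Fatty acid synthesis had 1 call of 24 (4.17%), ACACB, lost without mTeSR replicate 2 (1.14). None of 20 p53 targets, 14 cytochrome c oxidase subunits or 13 mitochondrial transcripts was called by edgeR or by DESeq2, and 6, 7 and 6 of them had an unadjusted p under 0.05 in edgeR, against 27.4% of all genes. Of the oxidase subunits 13 of 14 were below 0 and of the mitochondrial transcripts 12 of 13, and without E8 replicate 2, 1 and 2 of them were called lower. Of 28 cell cycle genes CDKN1C, the imprinted CDK inhibitor p57, was the 1 call (3.57%), at 52.5 and 47.1 CPM in E8 and 20.4 and 17.3 CPM in mTeSR, and it was also the 1 call of 20 imprinted genes (5%). The demethylase gene KDM6B, for histone H3 lysine 27, was higher at 1.87 and 1.88 against 7.87 and 9.23 CPM, 1 of 16 chromatin genes (6.25%). Of 35 matrix genes 4 were higher (11.4%), COL13A1, COL5A1, P4HA1 and LAMB1, and COL12A1 lower (2.86%) with 21 counts in E8 and 2 in mTeSR. LAMB1 was lost without E8 replicate 2 or mTeSR replicate 2 (0.92 and 0.94), and COL12A1 without E8 replicate 1 or either mTeSR replicate. In the epithelial and mesenchymal list of 23, MMP2, a matrix protease, was higher at 3.93 and 1.65 against 9.23 and 11.2 CPM and ANXA1 lower.

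By size of change among well-measured genes (called, at least 20 CPM in the higher medium, no overlap), the 15 that led in mTeSR were ERBB4, CER1, AC068313.1, FOXQ1, MIXL1, FOXA2, PFKFB4, SOX17, FAM184A, SP5, AC008397.2, TMEM45A, RHOBTB3, P3H2 and LHX1. All but AC068313.1, which differed between the mTeSR replicates (116.7 and 52.3 CPM), were called after leaving out any 1 library. FOXQ1, a forkhead factor, was at 3.56 and 3.30 CPM in E8 and at 28.5 and 30.2 CPM in mTeSR, and TMEM45A, a membrane protein gene, at 11.4 and 12.2 against 63.8 and 66.9 CPM. The 15 that led in E8 were EEF1A1P5, AC022018.1, AC011416.2, GCNT4, EEF1A1P11, EDN1, AC245033.4, MTCO3P12, ACTA1, AC007098.1, AC034236.1, ANXA1, AL591742.2, AC104563.1 and GPM6A, and 8 of these, EEF1A1P5, AC022018.1, AC011416.2, EEF1A1P11, AC245033.4, MTCO3P12, AC034236.1 and AC104563.1, were not called without E8 replicate 1. AC011416.2 was also lost without mTeSR replicate 2 (adjusted p 0.0644). EEF1A1P5, a pseudogene that shares its sequence with the translation factor gene EEF1A1, stood at 41.8 and 4.003 CPM in E8 and at 0 and 1.96 CPM in mTeSR, and MTCO3P12, a nuclear copy of a mitochondrial gene, at 140 and 32.0 against 19.5 and 10.6 CPM. In both, the high value was that of E8 replicate 1 alone. GCNT4, a glycosyltransferase gene (chromosome 5, 75025346 to 75052558), was at 59.8 and 59.6 against 10.3 and 5.597 CPM, and AL591742.2, a transcript with no further name, at 323 and 378 against 70.9 and 102 CPM, each called after leaving out any 1 library.

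The pseudogenes bear on the count of genes lower in mTeSR. Of 957 tested genes annotated as pseudogenes, 92 were called lower in mTeSR (9.61%) and 4 higher, and they made up 19.7% of all lower calls. A further 2141 tested genes were not found in the annotation by symbol. Of these, 95 were called lower (4.44%, and 20.4% of all lower calls) and 33 higher. Without E8 replicate 1, 6 pseudogenes were called lower, and without E8 replicate 2, 152. Of 12910 protein-coding genes 365 were called higher and 259 lower, 138 of the latter direction without E8 replicate 1. Pseudogenes may share reads with their parent genes, which was not tested, and these calls are uncertain.

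More genes were called at later days. In libraries of earlier days, 14 genes were called at day 4 (0.084%) and 184 at day 6 (1.1%, 105 higher and 79 lower in mTeSR). Of the 885 day 8 calls, 133 were also called at day 6, which is 15% of the day 8 calls and 72.3% of the day 6 calls, and all 133 had the same direction on both days. The sign at day 6 matched that at day 8 for 89.7% of the day 8 calls, against 65.9% of all genes tested. Genes higher at day 8 had a median log2 fold change of 1.53 at day 8, 0.77 at day 6 and 0.23 at day 4, and genes lower had -1.53, -0.61 and -0.37. These genes were chosen by their size at day 8, which by itself makes that day's median the larger. MIXL1 went from 0.94 at day 4 to 2.22 at day 6 and 2.94 at day 8, P4HA1 from 0.12 to 1.13 and 1.31, EDN1 from -0.37 to -1.98 and -2.77, and MT1E from -1.01 to -1.40 and -1.62.

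**Figure D5:**
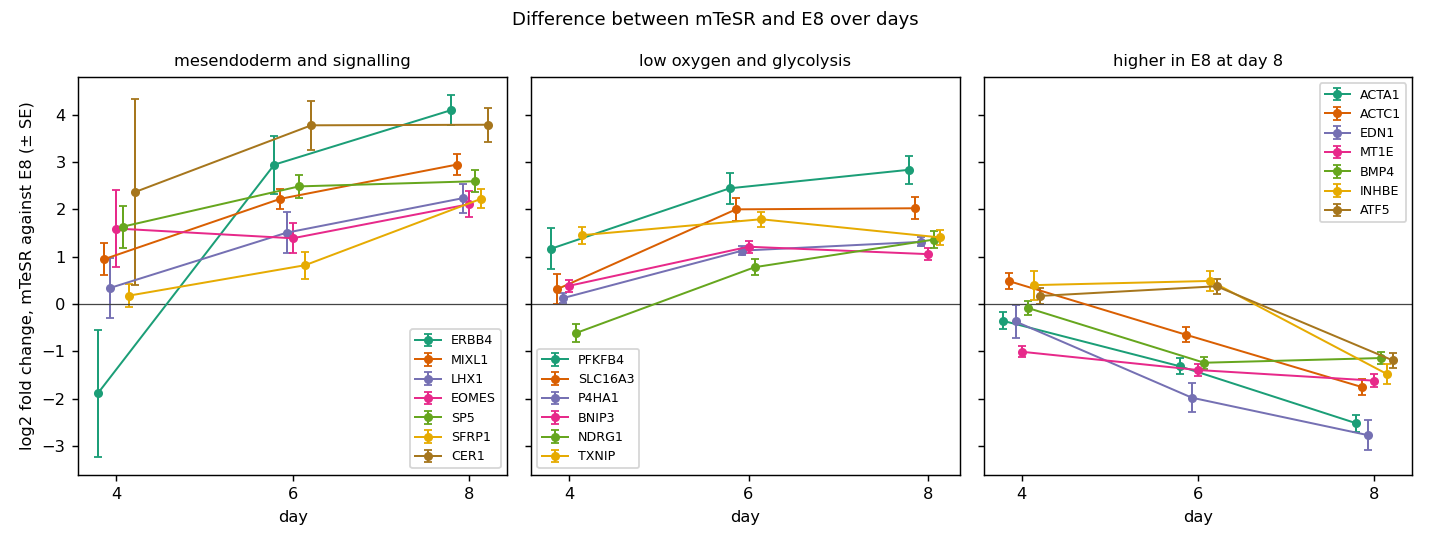
Log2 fold change of mTeSR against E8 (y axis, error bars ± SE of the fit) at days 4, 6 and 8 (x axis, points shifted sideways for sight) for genes of 3 groups. Each day compares 2 libraries with 2. The genes of the left and middle panels lie above 0 at days 6 and 8, and INHBE and ATF5 in the right panel cross from above to below 0 between days 6 and 8.

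Between day 6 and day 8, 163 genes were called within mTeSR (0.978%) and 134 within E8 (0.804%). The E8 count was 33 without E8 replicate 1 at day 8, 478 without E8 replicate 2 at day 8, 45 and 42 without E8 replicate 1 or 2 at day 6 and 2 with the compared libraries alone. The mTeSR count was 74 to 94 when 1 of its libraries was left out and 264 with the compared libraries alone. Tested directly as an interaction of medium and day, the difference changed from day 6 to day 8 in 8 genes (0.048%) and from day 4 to day 8 in 160 (0.96%). The 8 were ACTA1, ACTC1, ALDH1L2, ATF5, CCNA1, FAM129A and INHBE, all moving towards E8, and P3H2, a collagen prolyl hydroxylase, moving towards mTeSR. P3H2 went from 16.6 and 16.6 CPM to 69.2 and 70.2 CPM in mTeSR (adjusted p 1.36e-07) and stood at 9.18 and 12.7 CPM at day 6 and 11.2 and 16.5 CPM at day 8 in E8. CCNA1, a germ cell cyclin, fell in mTeSR from 81.0 and 83.0 CPM to 35.3 and 38.9 CPM and stood at 132 and 144 CPM at day 6 and 143 and 115 CPM at day 8 in E8. INHBE, ATF5, ALDH1L2 and FAM129A are known targets of ATF4, and at day 6 none of the 4 passed the test (log2 fold changes of 0.37 to 0.49, adjusted p 0.073 to 0.309). This count of 8 rested on single libraries: it was 147 without E8 replicate 2 at day 8, 2 without E8 replicate 1 at day 8, and 1 without mTeSR replicate 2 at day 8, and leaving out single day 6 libraries gave 2 to 5.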

How the data were processed

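The authors made QuantSeq 3′ libraries, sequenced single-end, and processed reads with nf-core/rnaseq (FastQC 0.11.9, STAR 2.7.10a, Salmon 1.9.0, hg38, per the study's methods and the submitters' processing notes). They deposited raw gene counts, whole numbers for 57133 genes in 38 libraries, here used as deposited. Groups were taken from sample titles. Replicates are called technical in some legends of the study and biological in others, so p-values measure only the spread between these libraries. That spread was shared over all 19 groups. The E8 pair at day 8 differed more than most pairs (chi-square per degree of freedom 7.28), and the p-values do not rest on its spread alone.

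Genes were filtered with filterByExpr (16674 tested, 99.65% of counts kept), scaled by TMM and fitted in 19 groups of 2 with edgeR 4.0.16 (R 4.3.3, quasi-likelihood F-test, common dispersion 0.01), sharing the spread over all groups. DESeq2 1.42.0, other scalings, filters, library sets, a replicate block and leaving out each library were alternatives. CPM use TMM-scaled totals and ± is the SE of the fit. Counting intervals are exact at 95%, floors are 3 counts over both libraries of a medium, and both cover counting error only, since reads carried no molecular identifiers.

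The members and gene lists were chosen with earlier results of these data known, and some actin, embryo and metabolic genes after their values were seen. Beside the lists, the text names the 15 genes with the largest change in each direction that were called, had at least 20 CPM in the higher medium and did not overlap. Some symbols were matched by older names (ALPG, CYR61, CTGF and H3F3A). Positions are those of GENCODE on GRCh38, matched by symbol (633 of 647 looked up), and promoters those of RefSeq GRCh38.p14. Some called genes of the lists are not reported here by name, though the counts include them.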

Additional observations from a re-analysis of the deposited data

Results flagged for a closer look

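The difference between the media changed between days in the genes listed here, by the interaction of medium and day in edgeR's quasi-likelihood test (adjusted p under 0.05 and a size over 1). Values are the log2 fold change of mTeSR against E8 at day 8 minus that at the earlier day, each over 2 libraries per medium and day. With 2 libraries a group, a pair by itself cannot show which of its libraries stands apart, and no test of single libraries was run.

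Against day 6 there were 8 genes. P3H2 gave 1.75 (adjusted p 0.027) in the direction of mTeSR. In the direction of E8 were INHBE at -1.97 (adjusted p 0.0041), ALDH1L2 at -1.66 (adjusted p 0.0133), ATF5 at -1.57 (adjusted p 0.00145), ACTA1 at -1.20 (adjusted p 0.0395), FAM129A at -1.14 (adjusted p 0.0217), ACTC1 at -1.11 (adjusted p 0.0414) and CCNA1 at -1.05 (adjusted p 0.0135).

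Against day 4, 43 of the genes named in the text were among the 160 called. The difference moved towards mTeSR in ERBB4 5.98, MIXL1 2.00, LAMB1 1.08, SFRP1 2.05, TBX3 1.27, P4HA2 1.12, MXI1 1.58, NDRG1 1.98, P4HA1 1.19, PDK1 1.40, SLC16A3 1.71, GPI 1.04, FAM162A 1.43, GYS1 1.29, GBE1 1.16, P3H2 2.20, NLRP7 1.21, CRABP2 1.21, FOXQ1 4.01, TMEM45A 1.85, RHOBTB3 2.48, FAM184A 2.07 and PLIN2 1.43. It moved towards E8 in INHBE -1.88, BMP4 -1.06, GREM1 -1.11, ACTA1 -2.16, ACTC1 -2.24, ACTG2 -1.61, MYL9 -2.24, CALD1 -1.36, TPM1 -1.19, TAGLN -1.10, ANXA1 -1.82, EDN1 -2.40, SLC39A14 -1.17, ATF5 -1.36, ALDH1L2 -1.34, FAM129A -1.07, CCNA1 -1.14, KLF4 -1.54, GCNT4 -2.65 and TRIM43 -1.39. ERBB4 stood at 0 and 0.230 CPM in mTeSR at day 4, under the floor of 3 counts, so that its value of 5.98 (SE 1.41) depends on the prior count of the fit and is neither a measured size nor a bound.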

How the results depend on the processing

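At day 8 the 885 calls became 881 with RLE scaling, 880 with plain library totals, 865 with a filter of more than 10 counts in 2 libraries, 993 with no filter, 815 with Ex1 libraries alone, 606 with DESeq2 (288 higher and 318 lower) and 516 with the compared libraries alone (263 and 253). Over all genes the median difference (log2) lay between -0.02 and 0.01 in these and the leave-one-out fits. At day 6, 184 became 348 with the compared libraries alone and 121 with DESeq2. At day 4, 14 became 9 with plain totals, 58 with no filter and 7 with Ex1 alone. The change of the difference from day 6 to day 8 (8 genes) became 85 with no filter, 5 with Ex1 alone and 2 with the compared libraries alone, and that from day 4 (160) became 243 with no filter and 94 with the compared libraries alone. Within mTeSR, 163 became 264 with the compared libraries alone and 106 with DESeq2, and within E8, 134 became 258 with no filter and 2 with the compared libraries alone. Leaving out 1 library gave 428 to 1200 calls at day 8 (244 to 493 higher, 178 to 707 lower), 102 to 116 at day 6, 5 to 8 at day 4, 1 to 147 for the change from day 6, 82 to 305 for that from day 4, 74 to 94 within mTeSR and 33 to 478 within E8. The cause of these moves was not tested.

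With the replicate number as a block 859 genes were called, 852 of them among the 885. Deviations of same-numbered libraries correlated at 0.0942 at day 8, 0.0195 at day 6 and 0.138 at day 4 over 9055 genes. Without a reference value these correlations cannot decide whether same-numbered libraries were paired.

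Of 147 named genes 125 were called, and 79 of these kept the call in every setting with a value. Of their 1486 values in other settings 1373 were called in the same direction, 113 lost the call and 0 turned, and 32 of the lost calls fell without E8 replicate 1. Uncalled genes whose sign turned ranged, over the libraries left out, from -0.44 to 0.58 for POU5F1, -0.0501 to 0.29 for SOX2, -0.26 to 0.12 for LEFTY1, -0.19 to 0.019 for VEGFA and -0.30 to 0.10 for ACTB. Total counts of 3534869 to 5350385 leave genes of a few CPM with few counts, and their folds are imprecise.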

Other observations

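Some genes of the cleavage-stage embryo were among those lower in mTeSR, where 2.79% of all genes tested were called lower. They were chosen after their values were seen and from no fixed list, so that they describe and do not test. TRIM43, a gene active at embryonic genome activation, stood at 55.3 and 28.7 CPM in E8 and at 13.0 and 9.79 CPM in mTeSR. PRAMEF11 was at 21.4 and 23.1 against 5.43 and 8.12 CPM and the cyclin gene CCNA1 at 143 and 115 against 35.3 and 38.9 CPM. ZSCAN4, the best known of this group, was at 6.74 and 5.65 against 2.44 and 2.24 CPM, a call lost without E8 replicate 1 or either mTeSR replicate. KHDC1L, a naive marker of the same stage, was at 46.7 and 49.2 CPM in E8 and at 50.8 and 52.6 CPM in mTeSR and was not called. The transcripts ESRG and LINC-ROR, which arise from HERVH elements and are abundant in pluripotent cells, were also lower in mTeSR, ESRG at 779 and 870 against 306 and 361 CPM and LINC-ROR at 26.2 and 32.7 against 10.6 and 10.6 CPM.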
